A study of Homo sapiens with 3 samples.

Results

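The MAL proteolipids (*MAL*, *MAL2*, *MALL* and *PLLP*) and the GPRC5 receptors (*GPRC5A*, *GPRC5B*, *GPRC5C* and *GPRC5D*) were taken by gene symbol from a table of 23131 genes, in which all 8 had 1 row each. The cells were HCT-116, a human colon carcinoma line that the labels describe as wild-type for *APC* and as carrying CTNNB1ΔSer45, a β-catenin that lacks a phosphorylation site needed for its degradation. The groups analysed here were cells given a pool of anti-*APC* siRNA on consecutive days, and cells that received no siRNA, which the labels call both untransfected and mock-transfected with the reagent alone. RNA was collected 48 hours after the second transfection, and there was 1 library per group. A library of cells given scrambled siRNA was not analysed here, so in the libraries analysed an effect of *APC* siRNA and one of siRNA in general cannot be told apart. With no replicates, no difference below has a test, and *MALL* and *GPRC5A* are in the set because their lower levels in these libraries were already known.

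MAL proteolipids are small proteins that span the membrane in a tetraspan MARVEL domain and gather in cholesterol-rich membrane, where they take part in sorting cargo to the apical surface of epithelial cells. MAL itself was found in maturing T cells and is also a myelin protein, and MAL2 is needed for transcytosis in polarised epithelium. MALL (BENE) interacts with caveolin-1, and PLLP (plasmolipin) belongs to myelin and to epithelial endosomes. GPRC5 receptors are orphan class C receptors with short extracellular ends. *GPRC5A* was cloned as a retinoic acid-induced gene, and GPRC5D is a surface protein of plasma cells.

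Promoter sequences are shown first, since *MALL* differs from *MAL* and *PLLP* in GC content and in SP1 cores. RefSeq starts were held for 5 of the 8 genes (*MAL*, *MALL*, *PLLP*, *GPRC5B* and *GPRC5D*) and *MALL* had 2, of which the one nearer the listed gene is shown. The 250 bases before a start are given below 5′ to 3′ for *MALL*, which had the lowest ratio of the 8 genes, for *PLLP*, its paralog with the next lowest, and for *MAL*, which was listed at 0. Capitals mark GGGCGG or its reverse complement, the core that SP1 binds. Each sequence was matched to GRCh37 without a mismatch.
*MALL*, chr2:110873400-110873649, minus strand: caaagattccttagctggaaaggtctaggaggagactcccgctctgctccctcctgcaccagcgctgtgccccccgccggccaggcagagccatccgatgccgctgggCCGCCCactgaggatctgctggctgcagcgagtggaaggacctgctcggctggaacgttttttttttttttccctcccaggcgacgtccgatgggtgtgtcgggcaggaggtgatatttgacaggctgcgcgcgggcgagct
*PLLP*, chr16:57318585-57318834, minus strand: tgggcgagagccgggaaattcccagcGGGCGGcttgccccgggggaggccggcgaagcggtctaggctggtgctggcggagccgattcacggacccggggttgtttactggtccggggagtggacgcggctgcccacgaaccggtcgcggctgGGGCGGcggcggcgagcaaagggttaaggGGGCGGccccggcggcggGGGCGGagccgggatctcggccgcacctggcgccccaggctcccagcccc
*MAL*, chr2:95691203-95691452, plus strand: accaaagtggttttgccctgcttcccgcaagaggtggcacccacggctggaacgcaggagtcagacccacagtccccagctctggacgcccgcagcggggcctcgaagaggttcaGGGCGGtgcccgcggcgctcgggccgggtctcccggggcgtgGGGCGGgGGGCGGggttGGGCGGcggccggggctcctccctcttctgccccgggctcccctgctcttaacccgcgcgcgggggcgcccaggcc
GC content was 62.8% for the *MALL* start shown, 76.0% for *PLLP* and 75.2% for *MAL*, where the median over 35116 RefSeq promoters was 58.0%. Before the *MALL* start not shown it was 44.4%. The SP1 core occurred 1 time before this *MALL* start, 4 times before *PLLP* and 4 times before *MAL*, it was absent before the other *MALL* start, and it was present in 45.0% of all promoter windows, which run from 250 bases before to 50 after a start. None of the 6 windows of these 5 genes held the TCF/LEF cores CTTTGAT or CTTTGAA, or the AP-1 core TGANTCA, on either strand. Over all promoter windows these were present in 2.62%, 4.43% and 7.71%. The TCF7L2 motif used in the paper, WWCAAAG (W is A or T), is wider and was not scanned. The window of the other *MALL* start holds AACAAAG, a match to it. The retinoic acid receptor site AGGTCA, in 13.8% of all windows, was present 1 time, before *GPRC5B*, and TATAAA, in 11.5%, was present only before *GPRC5D*, at 2 positions. A match is a description of letters, and its absence from a window of this length says nothing of binding elsewhere.

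Transcript levels are given as FPKM, fragments scaled to transcript length and to all mapped fragments, so that paralogs can be set side by side. The low values step by about 1 read, from which about 24400000 reads were estimated in untransfected cells and about 22200000 in anti-*APC* cells. *APC* had 9.15 FPKM without siRNA and 3.43 FPKM with anti-*APC* siRNA, so 0.375 of its level was left. *AXIN2*, a negative regulator and standard target of WNT signalling, went from 4.11 to 28.7 FPKM, and *CTNNB1* from 177 to 178 FPKM. Of 11 fixed markers of colon epithelium 6 had a mean of at least 1 FPKM, led by *KRT8*, *KRT18*, *KRT19* and *EPCAM*, whereas *CDX1*, *VIL1*, *CDH17* and *GPA33* were at most 0.0518 FPKM in either library. All 4 leukocyte markers were at most 0.182 FPKM.

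**Figure D1:**
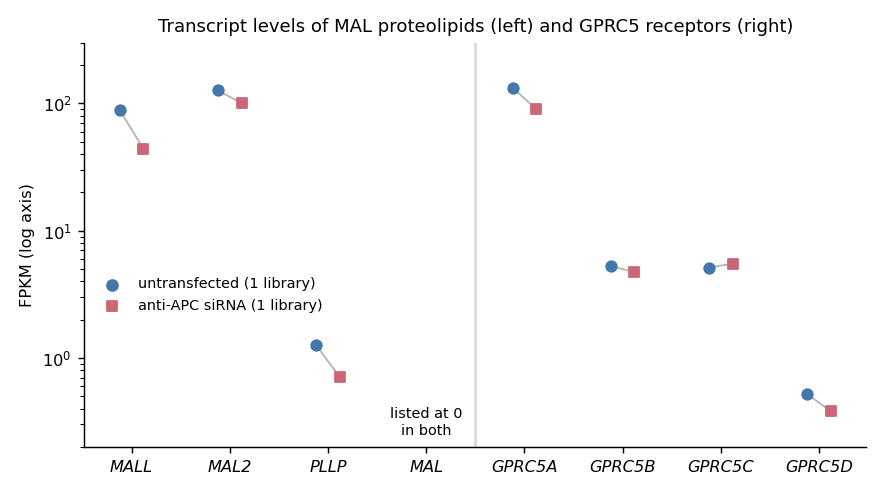
FPKM of the 8 genes on a log axis, with circles for the untransfected library and squares for the anti-APC siRNA library (1 library each, so no error bars). Lines join the libraries: *MALL*, *MAL2* and *GPRC5A* lie between 44.1 and 133 FPKM, the other listed genes below 5.6 FPKM, and *MAL* is listed at 0.

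*MALL* and *MAL2* made up nearly all of the MAL family transcript, and *MALL* differed more. *MALL* (ENSG00000144063), on chromosome 2 of GRCh37 from 110841447 to 110873599 on the minus strand, had 88.5 FPKM in the untransfected library and 44.1 FPKM in the anti-*APC* library. This left 0.498 of its level, a log2 ratio of -1.01, and 1.32% of the 12197 genes with a mean of at least 1 FPKM had a lower ratio. From the depth and its transcript length these values stand for about 5013 and 2264 reads, and the 95% exact interval of the log2 ratio from counting alone was -1.08 to -0.93. Such intervals cover counting error only, depend on the annotated length, and say nothing of variation between cultures. In bulk RNA a lower level in each cell and fewer cells with the transcript cannot be told apart.

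*MAL2* (ENSG00000147676), on chromosome 8 from 120177273 to 120257913 on the plus strand, had 126 FPKM in untransfected cells and 100 FPKM after anti-*APC* siRNA, with a log2 ratio of -0.33 (counting interval -0.38 to -0.29). It was lower in the same direction as *MALL*, by a smaller factor. The ratio of *MALL* to *MAL2* inside each library does not depend on how libraries are scaled, and it was 0.700 without and 0.440 with anti-*APC* siRNA. *MALL* accounted for 40.9% of the summed FPKM of the family in untransfected cells and for 30.4% after anti-*APC* siRNA, while the share of *MAL2* went from 58.5% to 69.1%.

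*PLLP* (ENSG00000102934), on chromosome 16 from 57282459 to 57318584 on the minus strand, had 1.26 FPKM in untransfected cells and 0.705 FPKM after anti-*APC* siRNA. Its log2 ratio of -0.84 was close to that of *MALL*, but it rests on about 46 and 23 reads, and the counting interval of -1.65 to -0.11 spans both a large and a very small decrease. *PLLP* overlaps *ARL2BP* on the opposite strand in the current annotation, but the loci listed for them lie 2464 bases apart. *ARL2BP* went from 31.6 to 26.4 FPKM. The strand setting of the read assignment is not given in the sources used here. *MAL*, on the same chromosome as *MALL* from 95691422 to 95719737, was listed at 0 in both libraries and marked as not tested. The family sum was 216 FPKM in untransfected cells and 145 FPKM after anti-*APC* siRNA.

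**Figure D2:**
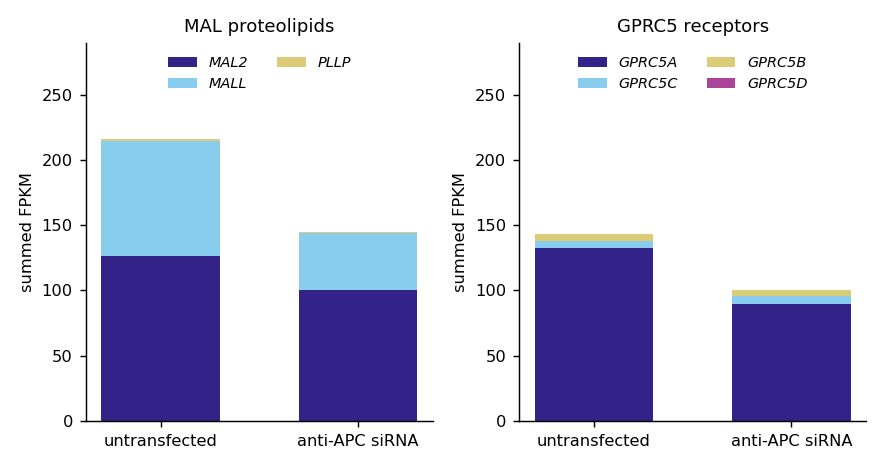
Stacked FPKM of the MAL proteolipids (left) and GPRC5 receptors (right) in the untransfected and anti-APC libraries, with the y axis from 0. The MAL sum is 216 and 145 FPKM and the GPRC5 sum 144 and 101 FPKM, and *MALL* is the segment of the MAL bar that narrows most.

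One receptor gene carried the GPRC5 family in these cells. *GPRC5A* (ENSG00000013588), on chromosome 12 from 13044493 to 13070871 on the plus strand, had 133 FPKM in the untransfected library and 89.9 FPKM in the anti-*APC* library. The log2 ratio was -0.56, with a counting interval of -0.62 to -0.51 from about 7502 and 4607 reads, and 7.23% of genes with a mean of at least 1 FPKM had a lower ratio. Among the 2129 genes with a mean of at least 50 FPKM, whose ratios spread less, this share was 3.35%. *GPRC5A* made up 92.4% of the family sum in untransfected cells and 89.4% after anti-*APC* siRNA.

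The other receptors were low and differed less. *GPRC5B* (chromosome 16, 19868013 to 19897489, minus strand) had 5.28 FPKM in untransfected cells and 4.71 FPKM after anti-*APC* siRNA, at a log2 ratio of -0.16 and a counting interval of -0.39 to 0.067. *GPRC5C* (chromosome 17, 72420990 to 72447792, plus strand) had 5.12 FPKM in untransfected cells and 5.51 FPKM after anti-*APC* siRNA, at a log2 ratio of 0.11 and an interval of -0.18 to 0.40. Both intervals include 0, and the order of these receptors is opposite in the 2 libraries. *GPRC5D* (chromosome 12, 13093509 to 13105104, minus strand) had 0.520 and 0.380 FPKM, or about 11 and 8 reads, so that no change short of several-fold was detectable at this depth. *GPRC5D* overlaps *GPRC5D-AS1* and *MAL2* overlaps *MAL2-AS1* on the opposite strand, so their reads may not be separable. *GPRC5B* overlaps *IQCK* in the current annotation, but the loci listed for them lie 1434 bases apart. The ratio of *GPRC5A* to *GPRC5C* inside a library was 25.9 without and 16.3 with anti-*APC* siRNA, and that to *GPRC5B* was 25.2 and 19.1.

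Set in order of level, *GPRC5A*, *MAL2* and *MALL* led the 8 genes in untransfected cells at ranks 725, 781 and 1165 of the table. After anti-*APC* siRNA *MAL2* was ahead of *GPRC5A*, at ranks 1002 and 1130, and *MALL* was at rank 2378. The levels of *MAL2* and *GPRC5A* were close in both libraries, and without replicates their order is not settled in either.

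Of the 5 genes with a mean of at least 1 FPKM (*MALL*, *MAL2*, *GPRC5A*, *GPRC5B* and *GPRC5C*), 1 was lower with anti-*APC* siRNA by at least 1.5-fold, namely *MALL*, beside 7.17% of all 12197 such genes. None was higher by this fold, beside 2.99% of all genes. *GPRC5A*, at 1.48-fold, lay just under the threshold, and *PLLP*, with a mean of 0.982 FPKM, just under the minimum. With the threshold at a log2 ratio of 0.32, 3 of the 5 genes were lower (*MALL*, *GPRC5A* and *MAL2*), beside 18.8% of all genes. With no minimum, 2 of the 7 genes above 0 in both libraries were lower by 1.5-fold (*MALL* and *PLLP*), beside 12.8% of 16289. *MALL* and *GPRC5A* were chosen on this contrast, so nothing is read from these counts. Over all 12197 genes the median log2 ratio was -0.05, and 58.6% of the ratios were below 0.

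**Figure D3:**
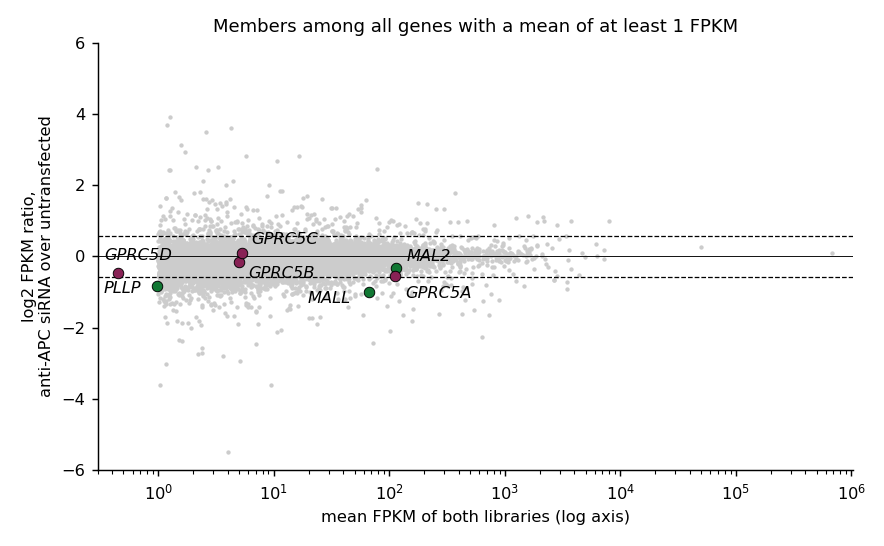
The log2 FPKM ratio of anti-APC siRNA over untransfected against the mean FPKM (log axis), with grey points for genes with a mean of at least 1 FPKM, green for MAL proteolipids and purple for GPRC5 receptors. Dashed lines mark 1.5-fold: *MALL* at -1.01 lies below the lower line among highly expressed genes, *GPRC5A* at -0.56 lies just above it, and *GPRC5C* at 0.11 is the only listed gene of the 8 above 0.

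Most of the *MALL* transcript also occurs at another place in the genome. Of the 2286 stretches of 32 bases in its annotated transcript, 2061, or 90.2%, also occurred outside the gene. All of these had a copy on the same chromosome between 111007478 and 111045083, a span that holds the transcribed pseudogene *MALLP1*. With stretches of 50 bases 87.7% were shared with this copy, and with 100 bases 82.0%. The coding part is less alike: 54.4% of its stretches of 32 bases and 7.78% of those of 100 bases were found in the copy. How the authors' processing divided such reads, and the read length of these libraries, are not given in the sources used here. The only listed gene that overlapped the copied span, *LOC100507334*, had 0.0488 FPKM with anti-*APC* siRNA and was listed at 0 without, and no row lay at *MALLP1*. Whether the *MALL* value holds reads of the copy was not tested. In the same scan *MAL*, *MAL2*, *GPRC5B*, *GPRC5C* and *GPRC5D* shared no stretch of 32 bases with another place, *PLLP* shared 4.09%, and *GPRC5A* shared 7.50% and none in its coding part. Only 1 annotated transcript per gene was scanned, the one used for the read estimates. That of *GPRC5C* held 284 coding stretches of 32 bases, beside 1178 for *GPRC5B*. That of *GPRC5A* has 6582 bases, of which 2311 lie inside its listed locus, and the share for that part alone is not given.

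The listed locus of *GPRC5A* ends at 13066600, short of the end at 13070871 in the current annotation, and the difference lies in the 3′ untranslated part of its last exon (exon 4 of 4, from 13065381 to 13070871). The microRNA gene *MIR614*, on the same strand from 13068763 to 13068852, lies inside this stretch and has its own row. *MIR614* was listed at 1244 FPKM in untransfected cells and 535 FPKM after anti-*APC* siRNA, with a log2 ratio of -1.22, so 0.430 of its level was left where *GPRC5A* kept 0.677. Its mature product is shown because it carries a separate value at the *GPRC5A* locus, with the seed (bases 2 to 8) in capitals.
hsa-miR-614: gAACGCCUguucuugccaggugg
Of the 1195 microRNA genes listed, 1028 were at 0 in both libraries, and *MIR614* ranked 16 by mean FPKM. Of the 160 with a mean of at least 1 FPKM, 66 were lower and 49 higher by at least 1.5-fold with anti-*APC* siRNA. Beside 7.17% and 2.99% of all genes, such ratios were common among microRNA rows, so nothing is read from that of *MIR614*. These libraries were made for mRNA, and the row does not measure the mature microRNA. A feature of 90 bases is shorter than the fragments usually sequenced, so the size of its FPKM cannot be set beside that of a gene, and whether its reads belong to the *GPRC5A* transcript was not tested.

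The genes around *MALL* had higher ratios than *MALL* itself, as nearly any genes would. *MALL* was chosen for its decrease, and only 1.32% of genes with a mean of at least 1 FPKM had a lower ratio. Within 500 kb of it 7 genes had a mean of at least 1 FPKM, with a median log2 ratio of 0.15, and 2 of them were below 0. *RGPD6* stood apart at 0.327 and 2.84 FPKM, a log2 ratio of 3.12, but it belongs to a family of near-identical copies and its value is uncertain. Around *GPRC5A* 10 of 12 genes were below 0, with a median of -0.39, beside 58.6% and -0.05 over all genes. These 12 include *MIR614*, which lies inside the last exon of *GPRC5A*, and *HEBP1* and *LOC100506314*, which share a listed locus. *HEBP1*, a heme-binding protein gene, had 23.0 and 17.0 FPKM (log2 ratio -0.43), and *EMP1*, an epithelial membrane protein gene, had 51.6 and 38.1 FPKM (log2 ratio -0.44). *DDX47*, an RNA helicase gene on the other side, had 118 and 113 FPKM (log2 ratio -0.06), and the pseudogene *RPL13AP20* next to it was at 0.11. The window of *GPRC5D* shares most of its genes with that of *GPRC5A* and holds *GPRC5A* itself. It had 11 of 13 genes below 0 and a median of -0.43. Around the other genes the medians were -0.21 over 15 genes for *PLLP*, -0.16 over 6 for *GPRC5B*, -0.17 over 8 for *GPRC5C*, -0.18 over 4 for *MAL* and 0.02 over 2 for *MAL2*. *MRPS5*, a mitochondrial ribosome gene and the nearest neighbour of *MAL* above 1 FPKM, had 43.9 and 45.5 FPKM. The windows, *EMP1*, *DDX47* and *RGPD6* were chosen after values had been seen.

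**Figure D4:**
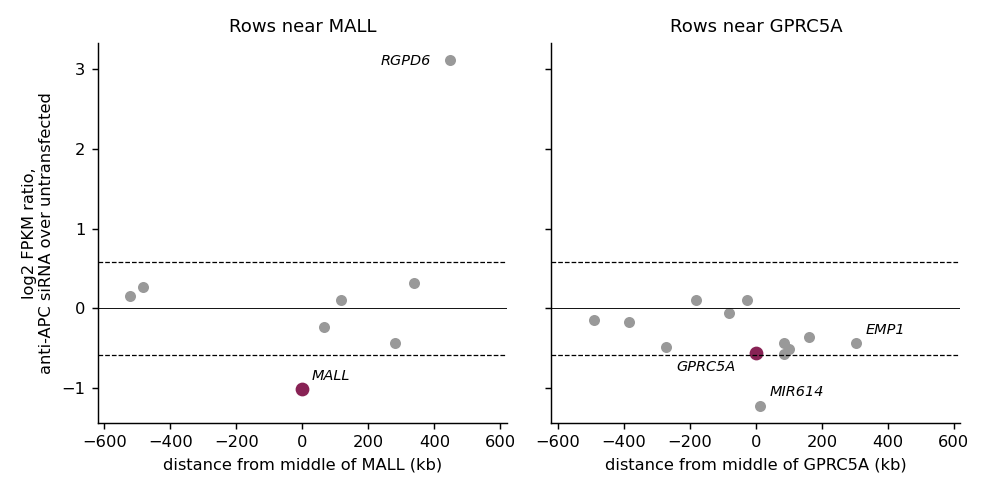
The log2 FPKM ratio of genes with a mean of at least 1 FPKM against their distance in kb from the middle of *MALL* (left) and *GPRC5A* (right), with dashed lines at 1.5-fold. *MALL* at -1.01, a gene chosen for its decrease, lies below all 7 neighbours. *GPRC5A* at -0.56 lies among neighbours with a median of -0.39, with *MIR614* at -1.22.

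Of 22 other genes with a MARVEL domain, 14 had a mean of at least 1 FPKM and 12 of these were below 0, beside 58.6% of all genes. Their median log2 ratio was -0.19 beside -0.05 over all genes. *MARVELD1* was the only 1 of the 14 past 1.5-fold, beside 7.17% of all genes lower by this fold, at 11.9 FPKM in untransfected cells and 7.54 FPKM after anti-*APC* siRNA. The most abundant were *SYPL1* at 71.9 and 71.8 FPKM, *SYNGR2* at 73.6 and 64.2 FPKM and *CMTM7* at 63.6 and 54.1 FPKM. The tight junction genes *OCLN*, *MARVELD2* and *MARVELD3*, which encode occludin, tricellulin and MARVELD3, had log2 ratios of -0.23, -0.16 and -0.21.

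Of 18 genes of membrane rafts and transcytosis, 15 had a mean that reached 1 FPKM and none of these was past 1.5-fold, beside 7.17% of all genes lower and 2.99% higher. Their median log2 ratio was -0.09, and 9 of the 15 were below 0, close to the -0.05 and 58.6% over all genes. *ANXA2*, which encodes a raft-associated annexin, had 571 FPKM in untransfected cells and 627 FPKM after anti-*APC* siRNA, *CAV1*, which encodes caveolin-1, had 294 and 300 FPKM, and *CDC42*, which encodes a small GTPase, had 127 and 139 FPKM. *INF2*, whose formin product acts with MAL2 in transcytosis, had 20.1 and 15.4 FPKM (log2 ratio -0.39), and *TPD52*, which encodes a binding partner of MAL2, had 44.3 and 47.3 FPKM (log2 ratio 0.10). *PTRF*, which encodes the caveolar protein cavin-1, had the lowest ratio of these 15 genes at -0.46.

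Class C receptors outside the GPRC5 family were near the bottom of the table. Only *GABBR1* and *GPR158* of 18 had a mean of at least 1 FPKM. Neither was past 1.5-fold, beside 7.17% of all genes lower and 2.99% higher, and so few genes show nothing of the list. *GABBR1*, a GABA-B receptor subunit gene, had 5.44 and 5.17 FPKM at a locus given on an alternative haplotype of chromosome 6, and *GPR158* had 0.958 and 1.30 FPKM. The third by mean was the glutamate receptor gene *GRM4*, at 0.433 FPKM in untransfected cells and 0.248 FPKM after anti-*APC* siRNA.

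Among genes of retinoic acid handling and response, to which *GPRC5A* belongs by its discovery, 3 of the 10 with a mean of at least 1 FPKM were lower by at least 1.5-fold and none was higher, beside 7.17% and 2.99% of all genes. *DHRS3*, a retinaldehyde reductase gene, had 33.1 FPKM in untransfected cells and 9.99 FPKM after anti-*APC* siRNA, with a log2 ratio of -1.73. *ALDH1A3*, which encodes an enzyme that makes retinoic acid, had 108 and 47.8 FPKM (log2 ratio -1.18). *RARG*, a retinoic acid receptor gene, had 21.3 and 11.2 FPKM (log2 ratio -0.92). These 3 had lower ratios than *GPRC5A*, but *CRABP2*, the most abundant gene of the list and a retinoic acid-binding protein gene, had 112 and 100 FPKM (log2 ratio -0.16), and the median of the 10 was -0.16. *RARA* and *RXRA*, which encode other retinoid receptors, were at -0.04 and -0.32, and *TGM2*, which is induced by retinoic acid in many cells, was at 0.33.

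Of 12 genes for tetraspan myelin and epithelial membrane proteins and other myelin proteins, 6 had a mean of at least 1 FPKM, with a median log2 ratio of 0.06. *GPM6B*, a relative of the myelin proteolipid gene, was the only 1 of the 6 past 1.5-fold, beside 2.99% of all genes higher by this fold, at 0.913 FPKM in untransfected cells and 1.43 FPKM after anti-*APC* siRNA. The most abundant were *EMP3* at 50.0 and 43.4 FPKM, *EMP1* as given above and *PMP22* at 36.1 and 39.3 FPKM. The myelin gene *MOG* was at most 0.0214 FPKM.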

How the data were processed

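The labels give 3 libraries, and the 2 with a column in the table were analysed. Per the labels and the paper's methods, the authors sequenced TruSeq libraries as single reads, used Cufflinks for transcript assignment and obtained FPKM per gene with Cuffdiff on hg19. The aligner, the annotation and versions are not given in the sources used here. The deposited FPKM were used as they are. The table also holds the natural log fold change, statistic, p and q of the authors' own comparison, which were not used. Of 23131 rows 269 are marked as failed, all listed at 0.

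The log2 ratio was computed without a pseudocount where both libraries are above 0. No p-value was computed. A gene was counted as past the threshold at 1.5-fold and a mean of at least 1 FPKM. The value of 1 read was the period of FPKM times transcript length below 0.25 in genes with 1 transcript (312 and 313 genes), and reads per gene were estimated from it and the exonic bases inside the listed locus. The depth step and the counts were tested on simulated data, which does not show how well the period fits the real values. That fit was weak, with a mean cosine of 0.257 in the untransfected and 0.344 in the anti-*APC* library. Read numbers are estimates, since the period rests on annotated lengths. Exact intervals are at 95%. Positions, overlaps and transcripts are from GENCODE 44 on GRCh37, and promoters and the microRNA from RefSeq (GRCh38.p14), matched by sequence to GRCh37. Genes named are the 8 members, checks of the labels, flanking genes, list genes past 1.5-fold and the 3 highest per list, and the 3 genes nearest to *MALL* and to *GPRC5A*. Other list genes were named after values were seen. The members and lists were chosen with earlier results of these data known. Alternatives were other pseudocounts, scalings, folds and minimums. Protein sequences were not analysed here. Some flanking, list and marker genes are not reported here. Python 3.11.15 was used with numpy 2.4.6, pandas 2.3.3, scipy 1.17.1 and matplotlib 3.10.9.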

Additional observations from a re-analysis of the deposited data

How the results depend on the processing

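Each of the 7 members above 0 kept its direction under 5 alternatives (pseudocounts of 0.1 and 1, and 3 scalings that subtracted -0.05, -0.03 or 0.06 from all log2 ratios). *MALL* lay between -1.07 and -0.95, *GPRC5A* between -0.62 and -0.51, *MAL2* between -0.40 and -0.28, *PLLP* between -0.90 and -0.41, *GPRC5B* between -0.22 and -0.11, *GPRC5C* between 0.04 and 0.16 and *GPRC5D* between -0.52 and -0.14. With summed FPKM set equal *GPRC5A* was at -0.62, which is past 1.5-fold. The number of members lower was 3 at a log2 threshold of 0.32 and 2 with no minimum on the mean. At the threshold of 0.32 the counts became 2 lower and 1 higher for MARVEL domain genes, 1 higher for class C receptors, 3 lower for raft and transcytosis genes, 1 higher for retinoic acid genes, and 1 lower and 2 higher for tetraspan myelin and EMP genes. At 2-fold 0 MARVEL domain genes and 2 retinoic acid genes were lower and 0 tetraspan genes higher. The counts lower at 0.32 stand beside 18.8% of all genes. For the other counts no share over all genes is given, so nothing is read from them. No paired analysis was possible because each group has 1 library, and for the same reason no library could be left out. Estimated read numbers limit what can be said of *PLLP* and *GPRC5D*.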

Other observations

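The genes nearest to *MALL* by their log2 FPKM in both libraries were *C8orf59* (75.1 FPKM untransfected, 44.2 FPKM anti-*APC*), *CYP24A1*, a vitamin D hydroxylase gene (81.5 and 52.5 FPKM), and *RHOC*, a small GTPase gene (89.6 and 53.6 FPKM), at distances of 0.24, 0.28 and 0.28 among 16288 genes. Those nearest to *GPRC5A* were *MIR4701* (132 and 91.0 FPKM), *SMN2* (137 and 96.9 FPKM), which has a near-identical copy in *SMN1*, and *PSME3*, a proteasome activator gene (121 and 89.1 FPKM), at distances of 0.02, 0.12 and 0.14. *MIR4701* is a microRNA row, whose FPKM cannot be set beside that of a gene. Nearness over 2 libraries says only that the listed values of the other genes are alike.

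Of the colon epithelial markers with a mean of at least 1 FPKM all 6 were lower with anti-*APC* siRNA, beside 58.6% of all genes. *CDH1*, the E-cadherin gene, had 19.0 FPKM in untransfected cells and 12.1 FPKM after it (log2 ratio -0.65) and was the only 1 past 1.5-fold, beside 7.17% of all genes lower by this fold. *KRT18*, *KRT19* and *KRT8*, keratin genes of simple epithelium, were at -0.45, -0.41 and -0.30, *EPCAM* at -0.15 and *CDX2* at -0.12. The marker *KRT20*, below the minimum, went the other way, at 0.475 FPKM in untransfected cells and 0.718 FPKM after anti-*APC* siRNA (log2 ratio 0.60). The part of these markers in the values of *MALL*, *MAL2* and *GPRC5A* was not tested. The fibroblast collagen gene *COL1A1* was at 2.85 and 3.08 FPKM, and the other 3 fibroblast and endothelial markers were at most 0.0263 FPKM.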
